A study of Mus musculus with 8 samples.

Results

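B-lineage transcripts, those of the immunoglobulin chains and of proteins made by B cells and plasma cells, were followed through RNA-seq libraries of sorted conventional dendritic cells (cDCs), which take up antigen and present it to T cells. The 9 genes Ighm, Igkc, Ighd, Cd79a, Cd79b, Ms4a1, Bank1, Mzb1 and Jchain were taken by gene name from a table of 31053 genes, and all 9 were present. The CKO genotype had 4 libraries (D146, D149, D163 and D169) and the WT genotype had 4 (D142, D150, D154 and D164). All came from mouse spleen, enriched to about 20% dendritic cells, cultured for 9 h with 100 nM CpG-B (a ligand of Toll-like receptor 9, which B cells also carry), and sorted afterwards for MHC class II and CD11c after gating out lineage-positive cells. The gene changed in CKO, the cells in which it was changed, the strain and age of the mice and the antibodies of the lineage gate are not known here. The labels do not say that each library came from its own animal, so each p-value is set against the spread between libraries, part of which may be technical.

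A B cell carries on its surface an immunoglobulin of heavy chains (Ighm for IgM, Ighd for IgD) and light chains (Igkc for kappa), joined to the signalling pair CD79A and CD79B. Each B cell clone joins 1 V segment per chain to its constant region, so the V segments in an RNA sample carry a trace of how many clones made it. Plasma cells, the antibody-secreting descendants of B cells, make far more immunoglobulin RNA per cell than a resting B cell and express the J chain (Jchain) that links IgM into polymers, while they switch off Ms4a1 (CD20).

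All 9 genes were detected in every library, at levels that differed between genes by orders of magnitude, and each had a higher mean in CKO than in WT. Their summed level was 771 ± 170 CPM in CKO and 327 ± 70.0 CPM in WT (CPM, counts scaled to TMM-adjusted library size; mean ± SD, n = 4 each), or 2.36 times higher in CKO. By library the sum stood at 757, 546, 951 and 831 CPM in CKO D146, D149, D163 and D169, against 359, 286, 408 and 254 CPM in WT D142, D150, D154 and D164, with no overlap. These sums were 0.0522% to 0.109% of all counts in CKO and 0.0251% to 0.0373% in WT. In bulk RNA, fewer cells of a type and less RNA per cell cannot be told apart.

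Library totals ran from 25304765 to 34291830 counts in CKO and from 26307642 to 40950088 in WT. The cDC markers Flt3 (114 CPM in CKO and 103 in WT), Zbtb46 (268 and 244) and Ccr7 (19588 and 22452) were present, while Itgax, which encodes CD11c, was low (8.67 and 6.97). Of genes tied to cDC subsets, Irf8 (3128 and 3386), Batf3 (197 and 231) and Sirpa (45.3 and 50.6) were present too. Others, Xcr1 (0.851 and 0.724), Clec9a (0.940 and 0.916), Itgam (1.81 and 1.95) and Cd209a (0.306 and 0.804), were lower than Itgax, with Clec10a detected in WT D154 alone. In all, 0 of the 15 cDC genes tested passed in edgeR, DESeq2 or limma-voom, nor did any have an unadjusted p under 0.05. Of 10 neutrophil genes, 5 had 0 counts in all libraries, and Siglech, a defining gene of plasmacytoid dendritic cells, stood at 0.165 to 1.21 CPM over the 8 libraries.

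**Figure D1:**
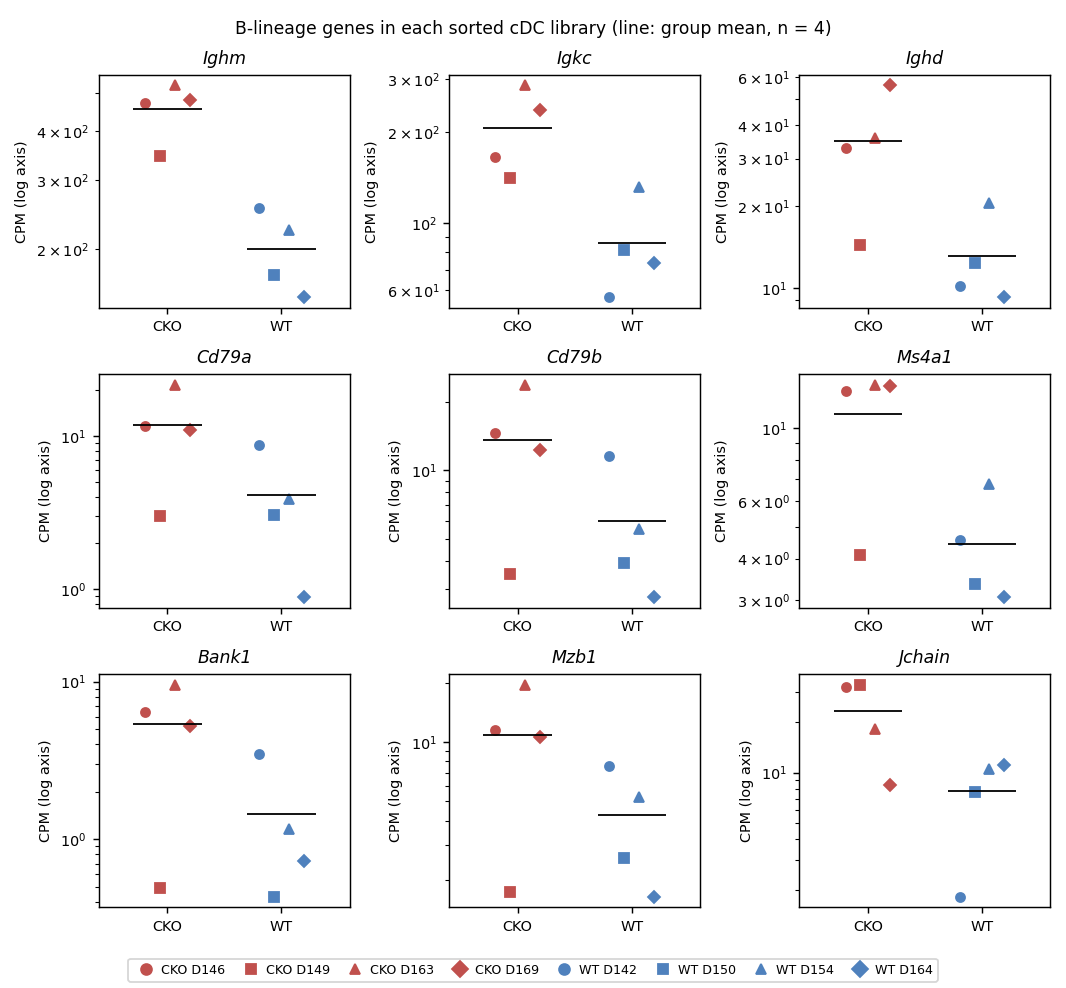
Level of each of the 9 B-lineage genes in CPM (log axis) in every library, CKO left and WT right; horizontal lines are group means of 4. The CKO and WT libraries are separate for Ighm and Igkc, and CKO D149 (square) lies among the WT libraries for Cd79a, Cd79b, Ms4a1, Bank1 and Mzb1.

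Ighm, the constant region of the IgM heavy chain (chromosome 12, 113418558 to 113422730, mm10), had 469.6, 344.5, 522.9 and 478.1 CPM in CKO D146, D149, D163 and D169, against 254.3, 171.3, 223.1 and 150.5 CPM in WT D142, D150, D154 and D164. Every CKO library lay above every WT library, and the log2 fold change was 1.18 ± 0.18 (SE; adjusted p = 0.0114 in edgeR's quasi-likelihood test, corrected by Benjamini-Hochberg over the 11702 genes tested). Igkc, the kappa light chain constant region (chromosome 6, 70726435 to 70726966), had 164.9, 140.8, 286.5 and 236.4 CPM in the CKO libraries in the same order, against 56.71, 81.08, 131.4 and 73.8 CPM in the WT libraries. Its groups did not overlap either, though CKO D149 and WT D154 were close, and its log2 fold change was 1.27 ± 0.27 (edgeR adjusted p = 0.0227). Ighd, the IgD heavy chain constant region that naive B cells express beside Ighm (chromosome 12, 113406604 to 113416324), had 32.8, 14.4, 35.8 and 56.0 CPM in CKO, against 10.2, 12.4, 20.6 and 9.25 CPM in WT. CKO D149 lay below WT D154, and the log2 fold change was 1.40 ± 0.36 (edgeR adjusted p = 0.0371).

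Per kilobase of gene length, which allows genes to be set side by side, Igkc was the most abundant at 389 ± 125 CPM per kb in CKO and 161 ± 60.3 in WT. Ighm followed at 241 ± 40.6 and 106 ± 25.2, and Ighd stood at 18.3 ± 8.97 and 6.89 ± 2.72. Below it came Mzb1 (12 in CKO and 4.72 in WT), Cd79b (9.48 and 4.15), Jchain (9.2 and 3.08) and Cd79a (8.06 and 2.84), then Ms4a1 (1.77 and 0.716) and Bank1 (0.722 and 0.193). From Ighd to Cd79a, neighbours in this order differed by less than 1 SD between libraries.

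Cd79a and Cd79b, the partner chains of the B cell receptor signalling pair, were much lower. Cd79a (chromosome 7, 24897381 to 24902197) had 11.6, 2.985, 21.55 and 10.87 CPM in CKO D146, D149, D163 and D169, against 8.75, 3.05, 3.87 and 0.888 CPM in WT D142, D150, D154 and D164. The groups overlapped: CKO D149 was lower than 3 WT libraries, and WT D142 was close to CKO D169. Cd79a had a log2 fold change of 1.52 with an SE of 0.62 and did not pass (edgeR adjusted p = 0.131). Cd79b (chromosome 11, 106311341 to 106314762) had 14.7, 3.48, 23.8 and 12.3 CPM in CKO, against 11.6, 3.91, 5.50 and 2.76 CPM in WT, and put the 8 libraries in the same order as Cd79a. Its log2 fold change was 1.20 ± 0.52 (edgeR adjusted p = 0.156).

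Ms4a1, which encodes the B cell surface protein CD20 (chromosome 19, 11249675 to 11266241), had 12.9, 4.12, 13.5 and 13.4 CPM in CKO, against 4.56, 3.35, 6.74 and 3.06 CPM in WT. CKO D149 stood apart from the other CKO libraries, and the log2 fold change of 1.31 ± 0.37 just passed (edgeR adjusted p = 0.0475). Bank1, a scaffold of B cell receptor signalling (chromosome 3, 136053363 to 136326066), had 6.37, 0.491, 9.58 and 5.19 CPM in CKO, against 3.48, 0.432, 1.15 and 0.724 CPM in WT. CKO D149 rested on 13 counts and WT D150 on 17, and the log2 fold change, with the largest SE of the 9, was 1.95 ± 0.75 (edgeR adjusted p = 0.116).

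Mzb1 encodes an endoplasmic reticulum chaperone of marginal zone and B1 B cells and plasma cells, and its level was 11.6, 1.74, 19.6 and 10.6 CPM in CKO, against 7.59, 2.59, 5.26 and 1.65 CPM in WT. It followed Cd79a and Cd79b in the order of the libraries and did not pass (log2 fold change 1.36 ± 0.60; edgeR adjusted p = 0.160). Exons of a same-strand gene model annotated SPATA24 overlap Mzb1, so its counts are less certain. Jchain (chromosome 5, 88519809 to 88527891) had 32.5, 33.4, 18.3 and 8.38 CPM in CKO, against 1.82, 7.62, 10.5 and 11.02 CPM in WT. Its order of libraries was its own: CKO D149, low for the other genes, was the highest, WT D142 was the lowest, and CKO D169 lay below WT D154 and WT D164. Jchain did not pass (log2 fold change 1.57 ± 0.50; edgeR adjusted p = 0.0704).

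Of the 9 genes, 4 were called higher in CKO (Ighm, Igkc, Ighd and Ms4a1) and 0 lower (also 0 lower by DESeq2 or limma-voom, or at an unadjusted p under 0.05), where 4.3% of all genes tested were called higher, 4.57% lower and 8.87% in either direction. All 9 had a log2 fold change of at least 1, against 2.73% of all genes, and the median was 1.36 against 0.03 over all genes. All 9 had an unadjusted p under 0.05 in edgeR, against 15.4% of all genes called higher at that level, and 6 of the 9 did in DESeq2 and in limma-voom. Libraries of the genotypes did not overlap for 2 of the 9, where 7.85% of all genes had every CKO library above every WT library and 8.09% had every one below. The genes were chosen with these results known and share their libraries, so the counts describe the set and do not test it. Every member kept a positive log2 fold change in each alternative in which it was tested, but the calls rested on single libraries: 7 were called without CKO D149 (Cd79b, Bank1 and Mzb1 were added), 3 without CKO D146 (Ms4a1 was lost), 3 without CKO D169 (Ighd and Ms4a1 were lost and Jchain was added), 2, Ighm and Igkc, without WT D154 or WT D164, and 1, Ighm, without CKO D163, WT D142 or WT D150. Over the whole table the count of calls was 70 without CKO D163, 457 without CKO D169, 347 without WT D142, 82 without WT D150 and 138 without WT D154, against 1038 with all libraries.

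**Figure D2:**
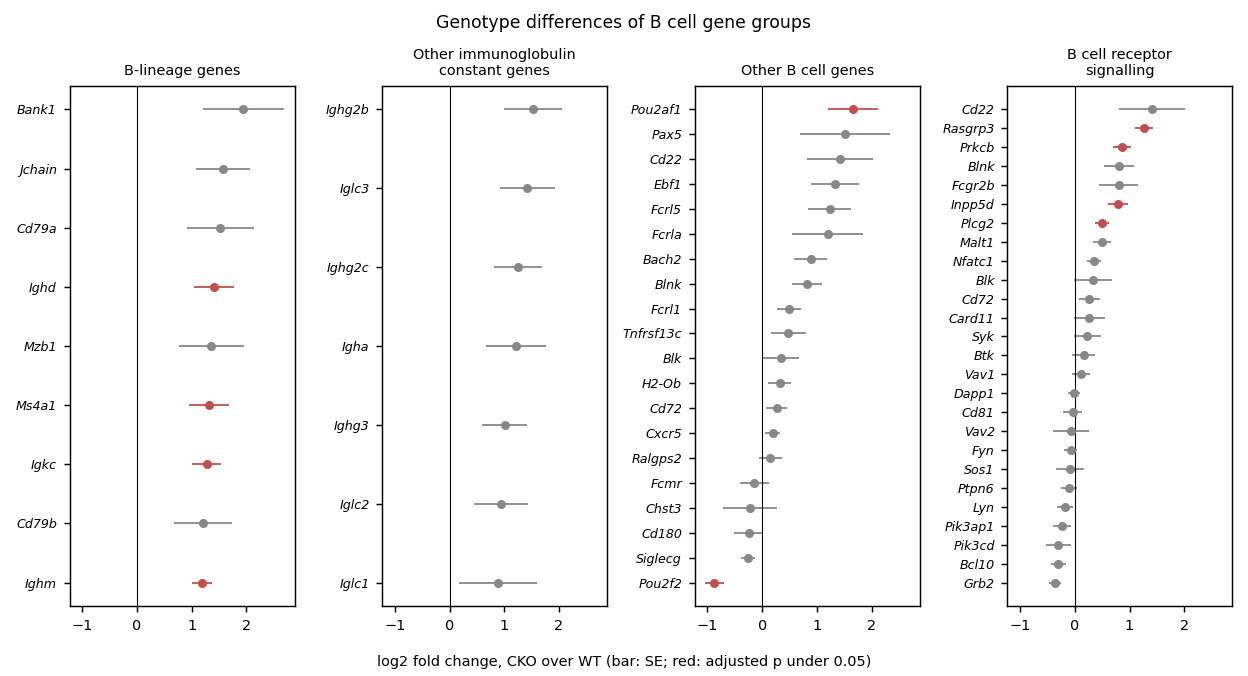
Log2 fold change of CKO over WT with its SE for the 9 B-lineage genes and the reported genes of 3 related lists; red marks an adjusted p under 0.05 in edgeR. All 9 B-lineage genes lie above 1 and all 7 other immunoglobulin constant genes tested lie above 0, while the signalling genes lie on both sides of 0.

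The 9 genes did not rise and fall together as 1 block across the libraries, and the lowest correlations were those with Jchain. Cd79a, Cd79b, Mzb1 and Bank1, a set picked after their values were seen, varied together: the Pearson r of log2 CPM over 8 libraries lay between 0.883 and 0.983 for its 6 pairs. For Cd79b and Mzb1, r was 0.983 (exact permutation p = 2.48e-05, two-sided, the smallest that 40320 arrangements can give; adjusted p = 0.000893 over 36 pairs) and Spearman's rho was 1.0 (exact permutation p = 4.96e-05; adjusted p = 0.000595). Without the 2 libraries farthest from the median of Cd79b, CKO D163 and WT D164, the r of that pair was 0.965. For Cd79a and Cd79b, r was 0.965 (exact permutation p = 0.000372; adjusted p = 0.00446) with rho 1.0 (exact permutation p = 4.96e-05; adjusted p = 0.000595), and r was 0.992 without CKO D163 and WT D164. All 6 pairs passed at an adjusted p of 0.05, and with each genotype's mean removed their r still lay between 0.834 and 0.98.

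Over all 36 pairs the median r was 0.79, 33 were positive, and 17 passed by Pearson's r and 19 by Spearman's rho. Every pair without Jchain had an r of 0.573 (Igkc and Bank1) or higher. Ms4a1 passed with each gene other than Jchain, at r from 0.848 (Cd79a) to 0.948 (Ighd). The highest adjusted exact permutation p of those pairs was 0.0355 (Cd79b). Ighm and Igkc were separated by genotype, so a single r over 8 libraries mixes the genotype difference with the rest, and with 4 libraries a genotype is too small for an r of its own. With genotype means removed, Ighm followed Cd79a (r 0.95) and Cd79b (0.934), while Igkc and Ighm gave 0.333. Of the 8 pairs with Jchain 0 passed, at r between -0.0478 and 0.604 (smallest exact permutation p = 0.106 for Igkc, adjusted p = 0.147). Not passing with 8 libraries does not show that a pair is unrelated. The 0.604 with Igkc was above the 0.573 of Igkc and Bank1, which did not pass either. With genotype means removed 7 of the 8 Jchain pairs were negative, down to -0.637 with Cd79a.

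**Figure D3:**
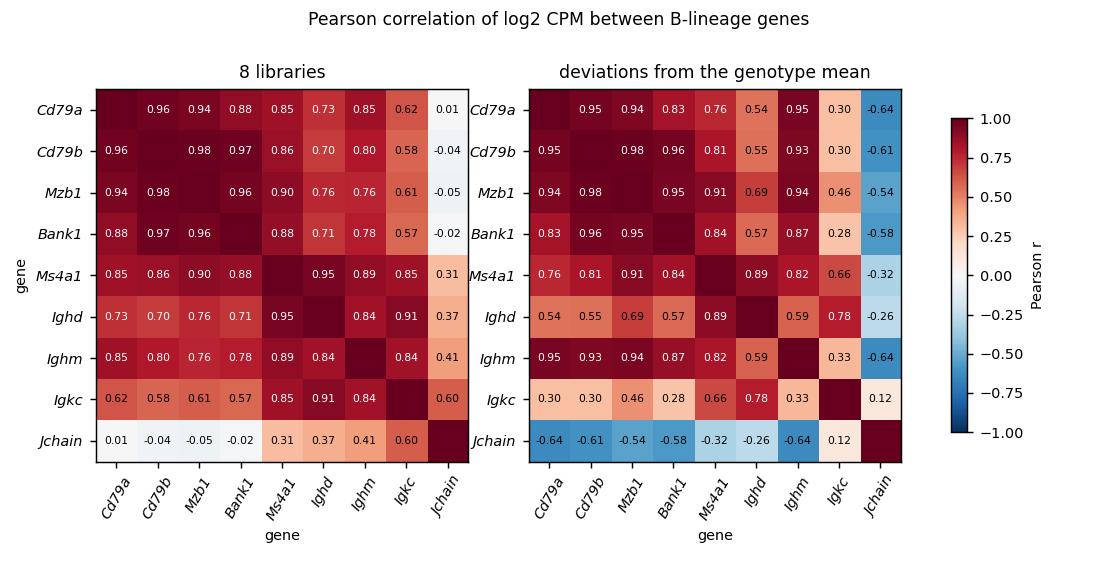
Pearson r of log2 CPM for the 36 pairs of B-lineage genes over 8 libraries (left) and after removal of each genotype's mean (right). The block of Cd79a, Cd79b, Mzb1 and Bank1 stays above 0.83 in both, and the Jchain row is near 0 for that block on the left and negative on the right.

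Ratios between members were then taken within each library. Cd79b per Cd79a was 1.10 to 1.27 in CKO and 1.28 to 1.42 in 3 WT libraries, and WT D164, with 27 Cd79a counts, stood at 3.11. Ighm per Cd79a was 40.6, 115.4, 24.3 and 44.0 in CKO D146, D149, D163 and D169, against 29.1, 56.2, 57.6 and 169.4 in WT D142, D150, D154 and D164. That ratio varied 6.98-fold, with the highest values in CKO D149 and WT D164, the libraries with the least Cd79a in their genotypes. Igkc per Ighm varied less, from 0.351 to 0.548 in CKO and from 0.223 to 0.589 in WT. Jchain per Cd79a varied most, 59.5-fold, at 2.81, 11.2, 0.848 and 0.771 in the CKO libraries, against 0.2085, 2.50, 2.72 and 12.4 in the WT libraries. For Ighm per Cd79a and for Jchain per Cd79a the genotypes overlapped.

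**Figure D4:**
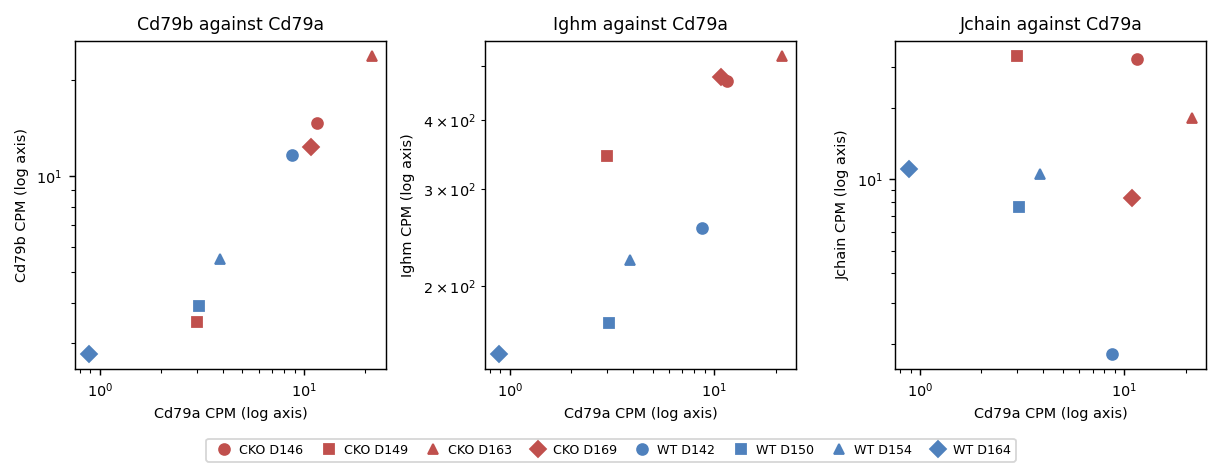
CPM of Cd79b, Ighm and Jchain against Cd79a in each library (both axes log). Cd79b lies close to a line, Ighm lies higher in CKO than in WT libraries of like Cd79a, and Jchain has no common trend, with WT D142 lowest and CKO D149 highest.

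V segments, which are joined to constant regions such as Ighm and Igkc in the same RNA, were read next. Their sums are therefore not separate evidence of the genotype difference of those genes. Summed heavy chain V segments (Ighv, 185 in the table) had 36.4, 19.9, 43.3 and 40.1 CPM in CKO D146, D149, D163 and D169, against 6.09, 10.1, 19.0 and 7.04 CPM in WT D142, D150, D154 and D164. Summed kappa segments (Igkv, 160 in the table) had 62.6, 67.5, 111 and 92.6 CPM in CKO, against 12.9, 30.6, 39.0 and 24.97 CPM in WT. For both families every CKO library lay above every WT library, as 7.85% of all genes did, though CKO D149 and WT D154 were close for Ighv.

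The segments differed between libraries in kind as well as in amount. Each library had its own most abundant Ighv segment and its own most abundant Igkv segment, 8 different names in each family. In CKO D163 this rests on 1 count, since Ighv1-80 had 172 and Ighv5-4, the most abundant in WT D142, had 171. In CKO D149, Ighv8-4 took 76.1% of Ighv counts (exact Clopper-Pearson 95% interval 72.2 to 79.7, counting error only) and Igkv8-27 took 57.2% of Igkv counts (54.9 to 59.5). Ighv8-4 had 401 counts there, 4 in WT D154 and 0 in the other 6 libraries. In WT D164, Ighv1-26 took 67.3% of Ighv counts (60.6 to 73.5) and Igkv4-59 took 77.7% of Igkv counts (74.6 to 80.6). In WT D150, Ighv7-3 took 55.1% (50.1 to 60.1) and Igkv1-117 took 52.0% (49.2 to 54.9).

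The germline 3′ ends of these 6 segments are shown because they name the chains that dominate the 3 libraries; each runs from 48 bases before the codon of the conserved cysteine that closes framework 3 (in capitals) to at most 9 bases after it. They are from GENCODE M21 on GRCm38 (mm10), 5′ to 3′ on the coding strand. The reads across the V-J junction, which would define a clone, are not used here.
Ighv8-4, chr12:115024026-115024459, minus strand: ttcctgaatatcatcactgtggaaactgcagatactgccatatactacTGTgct
Igkv8-27, chr6:70171809-70172270, minus strand: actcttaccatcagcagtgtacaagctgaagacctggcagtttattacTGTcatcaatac
Ighv1-26, chr12:114788372-114788805, minus strand: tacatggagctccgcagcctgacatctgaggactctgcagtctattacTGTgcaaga
Igkv4-59, chr6:69438218-69438757, minus strand: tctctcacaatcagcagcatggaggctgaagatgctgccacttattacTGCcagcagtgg
Ighv7-3, chr12:114153180-114153644, minus strand: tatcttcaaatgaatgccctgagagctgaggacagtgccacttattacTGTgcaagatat
Igkv1-117, chr6:68121046-68121827, plus strand: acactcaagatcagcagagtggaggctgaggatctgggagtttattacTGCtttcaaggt
Over its coding sequence each is close to another segment of its family, from 86.0% identity (Ighv8-4 with Ighv8-8) to 97.5% (Igkv1-117 with Igkv1-110), so reads may have been split or moved between neighbours. In the library that each segment led, its nearest segment had 0 to 11 counts. Whether reads were moved was not tested.

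CKO D163 and WT D142 were at the other end. In CKO D163 the most abundant Ighv segment, Ighv1-80, took 11.6% and the most abundant Igkv segment, Igkv12-41, took 13.3%. In WT D142, Ighv5-4 took 19.7% and Igkv17-127 took 9.0%, of 311 Igkv counts. Thinned to the 147 Ighv counts of the shallowest library, CKO D146, D149, D163 and D169 would be expected to show 31.7, 15.1, 35.7 and 31.4 segments, against 29.0, 21.8, 32.0 and 22.2 in WT D142, D150, D154 and D164. Thinned to 311 Igkv counts, the CKO libraries would show 42.0, 22.5, 52.5 and 52.1 segments, against 50.0, 37.9, 47.2 and 29.3 in the WT libraries. CKO D149 and WT D164 had the fewest in both families except that WT D150, at 21.8, was just below WT D164 for Ighv. CKO D149 and WT D164 were also the 2 libraries with the highest Jchain per Cd79a, and had the least Cd79a of their genotypes. Jchain itself was 33.4 CPM in CKO D149, close to CKO D146 (32.5), and 11.02 in WT D164, close to WT D154 (10.5). Whether diversity and Jchain are linked was not tested. Genotypes overlapped in all of these measures of diversity.

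**Figure D5:**
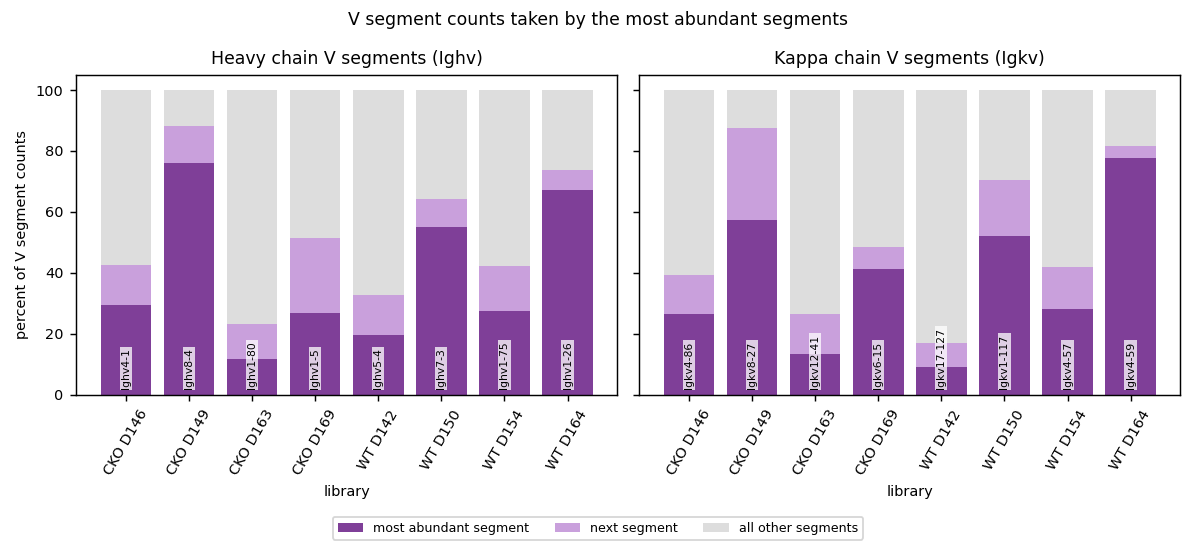
Share of Ighv (left) and Igkv (right) counts taken by the most abundant segment, which is named in each bar, the next and all others, in percent, for CKO and then WT libraries. The most abundant segment takes 76.1% of Ighv counts in CKO D149 and 67.3% in WT D164, against 11.6% in CKO D163.

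The 2 leading segments of WT D164 were also next in rank in CKO D149, and neither was limited to those libraries. Igkv4-59 took 12.9%, 30.2%, 0.423% and 0.681% of Igkv counts in CKO D146, D149, D163 and D169, against 1.61%, 1.49%, 0.227% and 77.7% in WT D142, D150, D154 and D164. Ighv1-26 took 4.13%, 12%, 11.1% and 1.29% of Ighv counts in CKO, against 0.68%, 4.01%, 1.87% and 67.3% in WT. Whether the same cells or clones lie behind these counts was not tested.

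Lambda chains and the IgG, IgA and IgE isotypes varied by library too. Lambda constant regions (Iglc1, Iglc2 and Iglc3) took 35.6%, 16.2%, 20.4% and 24.6% of light chain counts in CKO D146, D149, D163 and D169, against 44.4%, 13.1%, 34.8% and 9.67% in WT D142, D150, D154 and D164. Exact Clopper-Pearson 95% intervals were at most 2 percentage points to either side of a share. IgG, IgA and IgE constant regions took 17.2%, 15.2%, 23.5% and 23.0% of heavy chain constant counts in CKO, against 21.0%, 19.9%, 18.3% and 11.8% in WT. Reads that join these regions to a V segment were not used, so the share does not count B cells that have switched class. In both measures the genotypes overlapped. Of the 10 other immunoglobulin constant genes 7 could be tested, all 7 had a positive log2 fold change (median 1.22), and 0 passed in edgeR, DESeq2 or limma-voom. In edgeR 5 of the 7 had an unadjusted p under 0.05, where 15.4% of all genes were higher at that level. Ighg2b, the highest of them in CPM not corrected for gene length, had 50.05, 35.67, 94.07 and 111.5 CPM in CKO, against 41.99, 9.605, 40.9 and 9.311 CPM in WT, a log2 fold change of 1.52 ± 0.53 (edgeR adjusted p = 0.0926).

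Genes of B cell identity outside the 9 mostly had higher means in CKO. Of 24, 21 could be tested, 16 had a positive log2 fold change (53% of all genes did), and the median was 0.48. edgeR called 1 higher and 1 lower, near its shares over all genes of 4.3% and 4.57%. At an unadjusted p under 0.05 in edgeR, 8 were higher and 1 lower, where 15.4% of all genes were higher at that level. DESeq2 called 5 higher and 1 lower (969 and 1043 of all 11702 genes), and limma-voom 0 higher and 1 lower (561 and 624). Pou2af1, the B cell coactivator of octamer-binding factors, rose to 7.06 ± 3.54 CPM in CKO, against 2.21 ± 1.13 CPM in WT (edgeR adjusted p = 0.0437). Its call was lost, at adjusted p-values of 0.0658 to 0.128, without any library other than CKO D149. Pou2f2, the octamer-binding factor OCT2, fell to 24.2 ± 5.97 CPM in CKO, against 44.5 ± 3.78 CPM in WT (edgeR adjusted p = 0.0183), and lost its call without CKO D163, WT D150 or WT D154 (0.0563 to 0.0603). Cxcr5 (250 CPM in CKO and 219 in WT) and Siglecg (66.0 and 79.1), abundant genes of this list, are also expressed outside the B lineage. At the low end, Vpreb3 had at most 7 counts in a library, Fcer2a (CD23, a follicular B cell receptor) at most 5, and Cr2 (CD21) at most 13.

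Of 28 genes of B cell receptor signalling 27 could be tested. edgeR called 4 higher and 0 lower, where it called 4.3% of all genes higher and 4.57% lower. At an unadjusted p under 0.05 in edgeR, 10 were higher and 2 lower, where 15.4% of all genes were higher at that level. DESeq2 called 5 higher and 1 lower (969 and 1043 of all 11702 genes), and limma-voom 4 higher and 0 lower (561 and 624). In edgeR 16 of the 27 were positive and the median was 0.23. Rasgrp3, a Ras activator downstream of the receptor, rose to 23.9 ± 3.62 CPM in CKO, against 9.98 ± 1.44 CPM in WT (edgeR adjusted p = 0.00928). Prkcb, a protein kinase C that relays the receptor signal, rose to 73.8 ± 18.1 CPM against 40.6 ± 3.46 CPM in WT, Inpp5d, the inhibitory phosphatase SHIP1, to 13.2 ± 2.40 against 7.64 ± 1.08, and Plcg2, the phospholipase of the pathway, to 114 ± 15.7 against 80.7 ± 8.70. The proximal kinases did not pass: Syk had a log2 fold change of 0.23, Lyn -0.18, Btk 0.16 and Blk 0.34, with edgeR adjusted p-values of 0.442 or more. Dendritic cells also express many genes of this list, Fyn and Pik3ap1 among them with means over 400 CPM in both genotypes. Rasgrp3 kept its call in all 17 alternatives, Prkcb lost it without WT D150 (0.063) or WT D154 (0.0581), Inpp5d without CKO D163, CKO D169, WT D142, WT D150 or WT D154 (highest 0.0942), and Plcg2 without the same 5 or CKO D146 (highest 0.122).

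Plasma cell genes ranged from near 0 to abundant in both genotypes. Of 14 on the list, 11 could be tested. edgeR and DESeq2 called 1 higher (Pou2af1 in edgeR) and 0 lower, and limma-voom called 0. Over all genes edgeR called 4.3% higher, and DESeq2 called 969 of 11702 higher. In edgeR 5 had an unadjusted p under 0.05, all higher, where 15.4% of all genes were higher at that level, and the median was 0.33. Tnfrsf17, the plasma cell receptor BCMA, had at most 2 counts in a library, Fkbp11 at most 7 and Sdc1 (CD138) 0.91 CPM in CKO and 0.87 in WT. Xbp1 (260 CPM in CKO and 282 in WT), Irf4 (233 and 157) and Slamf7 (587 and 601) were abundant, and Tnfrsf13b (160 and 128), Ell2 (68.4 and 53.8), Creld2 (51.8 and 57.6) and Prdm1 (48.05 and 33.3) lay between.

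Markers of other cell types moved in both directions beside the B-lineage genes, and their part in the result was not tested. For the counts below, edgeR called 4.3% of all genes higher and 4.57% lower, and DESeq2 called 969 and 1043 of 11702. Of 13 T cell genes tested, 11 had a positive log2 fold change, against 53% of all genes. At an unadjusted p under 0.05 in edgeR, 5 of the 13 were higher and 0 lower, where 15.4% of all genes were higher at that level. In edgeR 2 were called higher (3 in DESeq2), Trac (5.75 CPM in CKO and 3.13 in WT) and Cd4 (1.07 and 0.265), with the list summing to 69.7 to 127 CPM in CKO and 55.6 to 90.9 in WT. Of 9 natural killer cell genes 0 were called in edgeR, DESeq2 or limma-voom, or had an unadjusted p under 0.05, with sums of 271 to 537 and 349 to 524 CPM. Of 9 macrophage and monocyte genes tested, all had a negative log2 fold change and 1, Spic, was called lower (41.1 CPM in CKO and 77.6 in WT), with sums of 64.7 to 144 and 130 to 177 CPM. All 5 erythroid genes tested were negative and 1, Alas2 (1.14 CPM in CKO and 4.53 in WT), was called lower in edgeR (2 in DESeq2), with sums of 6.53 to 87.3 CPM in CKO and 62.9 to 214 CPM in WT. At an unadjusted p under 0.05 in edgeR, 4 of these 5 were lower and 0 higher. Of 11 plasmacytoid dendritic cell genes tested, 2 were called higher, Ly6d (38.2 CPM in CKO and 15.9 in WT) and Cox6a2 (6.09 and 1.74), and 1 lower, Pacsin1 (18.4 and 25.9), with sums of 207.7 to 224.6 and 148.6 to 262.1 CPM. All 7 of these calls were lost without CKO D163, WT D150 or WT D154. Others were lost without CKO D146 (Pacsin1, Spic), CKO D149 (Pacsin1, Alas2), CKO D169 (all but Spic), WT D142 (Pacsin1, Cox6a2, Spic, Alas2) or WT D164 (Ly6d, Spic), with edgeR adjusted p of 0.0514 to 0.14 where lost.

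Genes were also ranked by how closely their log2 CPM over the 8 libraries followed the mean standardised log2 CPM of the 9, and of the 10 closest 0 stood in any of these lists. They were Ablim1 (Pearson r 0.983), Qtrt2, Mcm6, Telo2, 2610318N02Rik, Serbp1, Mcm3, Wdr77, Clpb and the lambda V segment Iglv3 (0.957). Ablim1, an actin-binding gene, had means of 8.71 CPM in CKO and 2.97 in WT, and Mcm6, a subunit of the replicative helicase, had 96.7 and 66.7. The B cell genes Fcrl5 (r 0.956), Ebf1 (0.944) and Pou2af1 (0.928) ranked 11, 29 and 54 among all other genes tested. Cd4 (0.952), of the T cell list, ranked 15, with low means of 1.07 CPM in CKO and 0.265 in WT. Ly6d (0.899) and Cox6a2 (0.869), called higher on the plasmacytoid dendritic cell list, ranked 130 and 245. The other genes tested on that list had r of 0.335 (Atp1b1) or lower, down to -0.696 (Ccr9). Which cells the Ly6d and Cox6a2 counts came from was not tested. The score itself was highest in CKO D163 (1.19) and lowest in WT D164 (-1.09), with CKO D149 (-0.38) and WT D142 (-0.376) level with each other. These r values rank genes chosen from the whole table, share libraries and genotype, and carry no test.

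Promoters before the RefSeq gene starts could be read for 3 of the 9 genes in the RefSeq table for GRCm38.p6. The 250 bases before the start are shown for Cd79a and Bank1, which varied together, and for Jchain, which did not vary with them. The RefSeq start of Cd79a lies downstream of the start in the deposited table, so its GGAAGT match lies inside the gene as that table gives it. Capitals mark matches on either strand to GGAAGT, the core bound by ETS factors, and CAGGTG, an E box of the kind bound by E2A, which occur in 19.7% and 17.2% of all 32851 promoters read over the same length; the matches do not overlap.
Cd79a, chr7:24897247-24897496, plus strand: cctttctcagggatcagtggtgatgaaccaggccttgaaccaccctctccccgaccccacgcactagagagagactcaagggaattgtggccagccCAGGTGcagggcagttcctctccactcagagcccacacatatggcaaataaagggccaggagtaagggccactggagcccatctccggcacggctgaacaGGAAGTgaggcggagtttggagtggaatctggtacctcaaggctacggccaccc
Bank1, chr3:136326067-136326316, minus strand: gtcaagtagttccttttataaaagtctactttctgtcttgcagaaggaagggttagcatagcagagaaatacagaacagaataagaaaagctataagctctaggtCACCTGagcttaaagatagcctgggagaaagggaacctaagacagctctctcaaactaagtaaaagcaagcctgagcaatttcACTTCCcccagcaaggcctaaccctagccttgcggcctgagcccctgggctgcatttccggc
Jchain, chr5:88527898-88528147, minus strand: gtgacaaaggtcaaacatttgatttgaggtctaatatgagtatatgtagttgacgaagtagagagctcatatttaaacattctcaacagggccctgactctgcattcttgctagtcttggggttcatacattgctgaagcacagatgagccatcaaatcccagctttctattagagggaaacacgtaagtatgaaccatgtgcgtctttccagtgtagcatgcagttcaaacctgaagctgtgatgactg
Cd79a and Bank1 each held 1 match to both motifs and Jchain held 0 to either. Exact matches to the octamer ATGCAAAT, present in 1.6% of promoters, were in 0 of the 3. The strict palindrome bound by EBF1, with any bases at its centre, was in 0 of the 3 too and in 0.779% of promoters. Sites that depart from that palindrome were not searched for, so the 0 does not speak to imperfect EBF1 sites in these promoters. A match is a description of these letters and no measurement of binding.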

How the data were processed

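The data are RNA-seq counts per gene for 8 libraries of sorted, CpG-B-treated mouse spleen cDCs, 4 CKO and 4 WT, grouped by the genotype labels. Per the labels' protocols, polyA RNA was amplified with a low-input SMART-Seq kit. The genome build mm10 and the tools HISAT2 2.2.1 and fastp 0.23.2 are named per the submitters' processing notes. How reads were counted per gene, with which annotation and strand rule, is not stated there. The counts were deposited by the authors without normalization. The deposited table also gives gene length and coordinates. No 2 libraries were copies (smallest chi-square per degree of freedom 43.1). The labels name no batch.

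Fold changes are CKO over WT from edgeR 4.0.16 in R 4.3.3 (filterByExpr, TMM, robust quasi-likelihood F test, Benjamini-Hochberg over 11702 genes, threshold 0.05); SE is the log2 fold change divided by the square root of F. Log2 CPM used a prior count of 2. The test was checked on simulated data. Alternatives were DESeq2 1.42.0, limma-voom (limma 3.58.1), scaling by total counts, RLE or upper quartile, a filter at 5 CPM on average or none, non-robust dispersions, an offset for each library's trend with gene length (splines, 5 degrees of freedom) and leaving out each library. Permutation tests enumerated all pairings. The 9 genes, the gene lists and the tests were chosen with earlier results of these data known, and sets within the 9, V segment measures by library and motifs were chosen after seeing these values. Genes were named if members, if called in a list, among its most abundant, or among the 10 most alike in pattern; others were named after their values were seen. A gene of the B cell lists enters their counts and medians and is not reported by name here.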

Additional observations from a re-analysis of the deposited data

Results flagged for a closer look

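Ms4a1 in CKO D149, at 4.12 CPM, stood far below the other 3 CKO libraries, which lay between 12.9 and 13.5 CPM. It was the 1 sample that stood apart among 24 sets of 4 libraries checked this way, and about 1 set in 20 would stand out by chance. CKO D149 was also the lowest CKO library for Ighm, Igkc, Ighd, Cd79a, Cd79b, Bank1 and Mzb1 and the highest of all libraries for Jchain.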

How the results depend on the processing

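The 9 genes kept a positive log2 fold change in all alternatives in which they were tested (Bank1 in 16 and each of the others in 17). Ighm kept its call in all 17, Igkc in 14, Ighd in 10 and Ms4a1 in 7, with adjusted p-values up to 0.0457, 0.0784, 0.107 and 0.137. Cd79a passed in 0 of 17. The count of members called moved from 4 to 2 without the low-count filter and lay between 1 and 7 when a library was left out. Over all genes DESeq2 called 2012, against 1038 in edgeR, and leaving out a library gave 70 to 1468. Total-count scaling called 1080 genes higher and 311 lower, against 503 and 535, raised the median of all genes from 0.03 to 0.19 and that of the 9 from 1.36 to 1.6, and added Jchain (adjusted p = 0.0452). The summed level of the 9 was 2.18 to 2.69 times higher in CKO under total-count and RLE scaling, as a mean of log2 CPM and without any 1 library, and that of the 7 without Ighm and Igkc was 2.69 times higher. The median correlation between members lay between 0.676, with genotype means removed, and 0.887. No paired analysis was possible because the genotypes share no replicate number. At totals of 25304765 counts or more, counting error bears more on Bank1 (13 to 327 counts) and single V segments than on Ighm (4573 counts or more). Bank1 also varied between libraries together with Cd79b (r 0.969), and the share of each in its SE was not separated. The cause of these shifts was not tested.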
